A study of Homo sapiens with 8 samples.

Results

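The genes described here are 10 members of the phospholipase C family, PLCE1, PLCB1, PLCB2, PLCB3, PLCB4, PLCG1, PLCG2, PLCD1, PLCD3 and PLCH1. They were taken by symbol from the 54261 genes of 1 table of gene counts, and each symbol matched 1 row. Total RNA depleted of ribosomal RNA was sequenced from 5 human lines without treatment and from 3 of them under hypoxia, which gave 8 libraries with 1 library per line and condition. NCM460 and HIEC6 are labelled as lines of normal intestinal epithelium (n = 2 lines). DLD1, HCT116 and HCT8 are colorectal cancer (CRC) lines (n = 3 lines), and the same 3 lines were also sequenced under hypoxia. All libraries are labelled as passage P5 of cultures grown in DMEM with serum. The oxygen level and the length of the hypoxia are not given in the sources used here. Each group is thus made of different cell lines, and its SD is the variation from line to line. The study followed a circular RNA made from PLCE1, and the counts are of whole genes, in which reads of circular and linear PLCE1 RNA cannot be told apart.

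Phospholipase C enzymes cut the membrane lipid PIP2 into IP3, which releases calcium from the endoplasmic reticulum, and diacylglycerol (DAG), which activates protein kinase C and other C1-domain proteins. The classes differ in what switches them on. The beta enzymes answer G proteins of receptors coupled to Gq or Gi, the gamma enzymes are phosphorylated by receptor and immune tyrosine kinases, the delta and eta enzymes respond to calcium, and the epsilon enzyme binds GTPases of the RAS family and also acts as an exchange factor for RAP1.

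The members share a catalytic core, and the letters around its active-site histidine show how far the genes have drifted apart at the part that they all keep. The lines give 24 bases of the canonical transcript of each gene (GENCODE release 44, GRCh37 annotation, sense strand), with the histidine codon in capitals.
PLCE1: gaatcttcgCACaatacctacctc
PLCB1: aattcctcgCACaacacctacctc
PLCB2: aactcgtccCACaacacctacctg
PLCB3: aactcctcgCATaacacctatctc
PLCB4: agttcttccCATaacacttatctc
PLCG1: tcctcctcgCACaacacgtacctg
PLCG2: tcctcgtcaCATaacacgtacctt
PLCD1: tcctcttcaCACaacacctacctg
PLCD3: tcttcctccCACaacacctatctg
PLCH1: gcttcctctCACaatacatacctg
The histidine codon was CAC in 7 genes and CAT in PLCB3, PLCB4 and PLCG2. Over the 45 pairs of members, between 3 and 9 of the 24 bases differed (median 6). PLCE1 differed from its 9 paralogs at 4 to 9 bases, least from PLCB1. The longest run of identical bases shared by any 2 of the whole transcripts was between 11 and 37 bases, and the run of 37 was between PLCE1 and PLCD3.

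Total counts lay between 45519306 and 57374239 per library, so that 3 counts, taken as the floor, were 0.0523 to 0.0659 CPM (counts scaled to a column total of 1000000), and all intervals of counts given here cover counting error only. Untreated and hypoxia libraries of the CRC lines share no run label, so run and treatment cannot be told apart in that comparison. The labels' extraction text names prefrontal cortex, and the brain markers SNAP25 and GFAP reached at most 0.899 and 0.0950 CPM. The 10 brain markers summed to 21.9 to 299.6 CPM per library, mostly MBP and SYT1, and the 10 blood cell markers summed to 3.12 to 22.7 CPM. Another brain marker, GAD1, had 263 to 1115 counts per library. In HIEC6, EPCAM was at 0.176 CPM and VIM at 1223 CPM, whereas KRT8 was at 4290 CPM. The mesenchymal markers did not all follow VIM. FN1, CDH2, COL1A1, LUM and PDGFRB also had more counts in HIEC6 than in NCM460, but COL1A2, COL3A1, SPARC and THY1 had fewer. EPCAM lay between 198 and 651 CPM in the other 7 libraries and VIM at 20.6 CPM or below. The library labelled NCM460 correlated at 0.994 with that of HCT116 across genes (log2(CPM + 1), genes not being independent replicates) and at 0.924 with that of HIEC6. The untreated and hypoxia libraries of 1 line correlated at 0.994 in DLD1, 0.980 in HCT116 and 0.989 in HCT8. Untreated DLD1 and HCT8, which are different lines, correlated at 0.973. The likeness of NCM460 and HCT116 was thus at the level of 2 libraries of 1 line. The library labelled NCM460 was nearer to a CRC line than to the other line labelled normal. Whether its label holds was not tested, so the group of normal lines and its n rest on the labels as given. The fold changes of CRC against normal lines are given with and without each of these 2 libraries.

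All 10 members had counts in every library. Their summed level was lowest in HIEC6, at 406 CPM, and highest in untreated HCT116, at 530 CPM. To compare levels between genes, CPM was divided by the length of the merged exons in kb. On this scale PLCB3 and PLCD3 were the first and second genes in all 8 libraries. PLCD3 led in HIEC6 (27.7 CPM per kb) and untreated DLD1 (26.2), and PLCB3 led in the other 6 libraries, by the widest margin in untreated HCT116 (49.3 against 15.9 for PLCD3). PLCB3 and PLCD3 together held most of the summed level, with PLCB3 at 29.6% to 60.8% and PLCD3 at 19.6% to 48.7%. PLCE1 was the fourth gene in HIEC6 (1.07 CPM per kb) and ranked between the positions 5 and 9 elsewhere, and it held 0.449% to 2.61% of the sum. The length of the canonical transcript in place of merged exons changed the leader of 1 library. PLCD1 then came first in HCT8 under hypoxia at 27.1 CPM per kb, above PLCB3 at 26.4 and PLCD3 at 23.5. Lower ranks and shares moved too. In untreated HCT8, PLCE1 was at 3.93 in place of 1.80 CPM per kb and PLCB3 at 32.7 in place of 27.7. The shares given above hold for merged exons only.

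**Figure D1:**
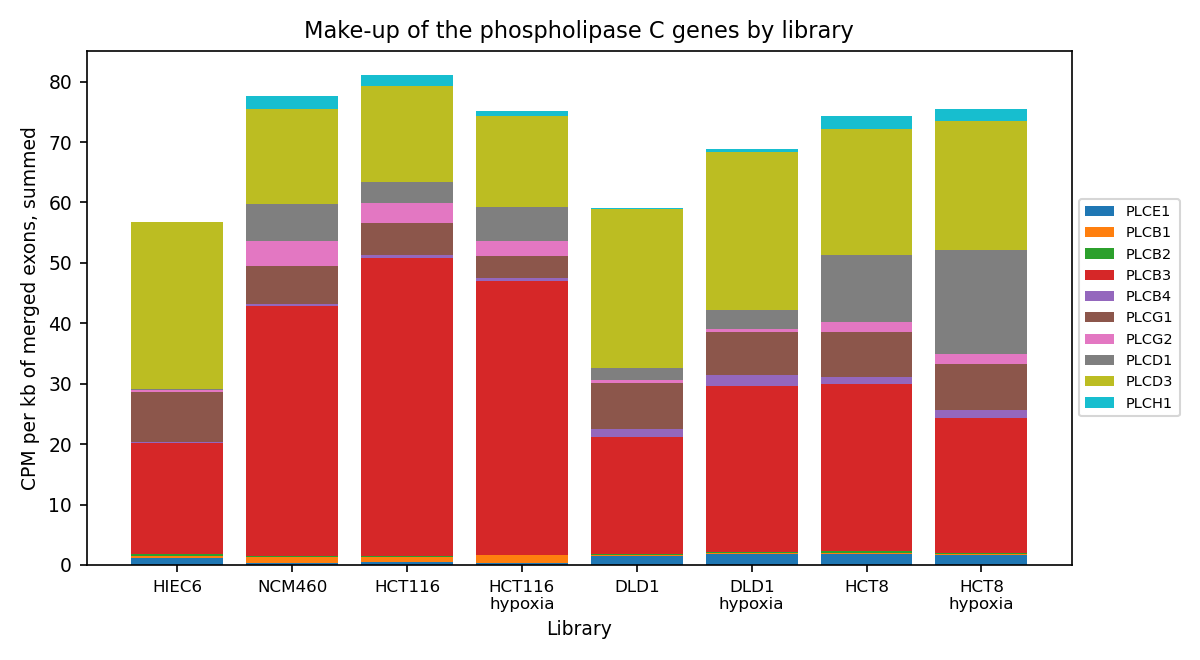
Stacked bars show CPM per kb of merged exons of the 10 phospholipase C genes, summed, for each of the 8 libraries. PLCB3 (red) and PLCD3 (olive) fill most of every bar, PLCD1 (grey) reaches 22.7% of the bar of HCT8 under hypoxia, and the bars run from 56.8 (HIEC6) to 81.1 CPM per kb (untreated HCT116).

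The levels of single genes were then compared between lines on the CPM scale. The 3 CRC lines have 2 libraries each, so the line was tested with edgeR's quasi-likelihood test on these 6 libraries with the treatment as a term, and each p-value was adjusted over all 21045 genes tested (Benjamini-Hochberg). The libraries of 1 line are not known to be separate cultures of 1 condition, so these p-values measure only the spread that line and treatment leave. PLCE1, PLCB1, PLCB3, PLCB4, PLCG2, PLCD1 and PLCH1 differed between the lines (7 of 10 members), and over all genes tested 39.0% did. PLCB2 (adjusted p = 0.702), PLCD3 (0.107) and PLCG1 (0.161) did not pass the test.

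**Figure D2:**
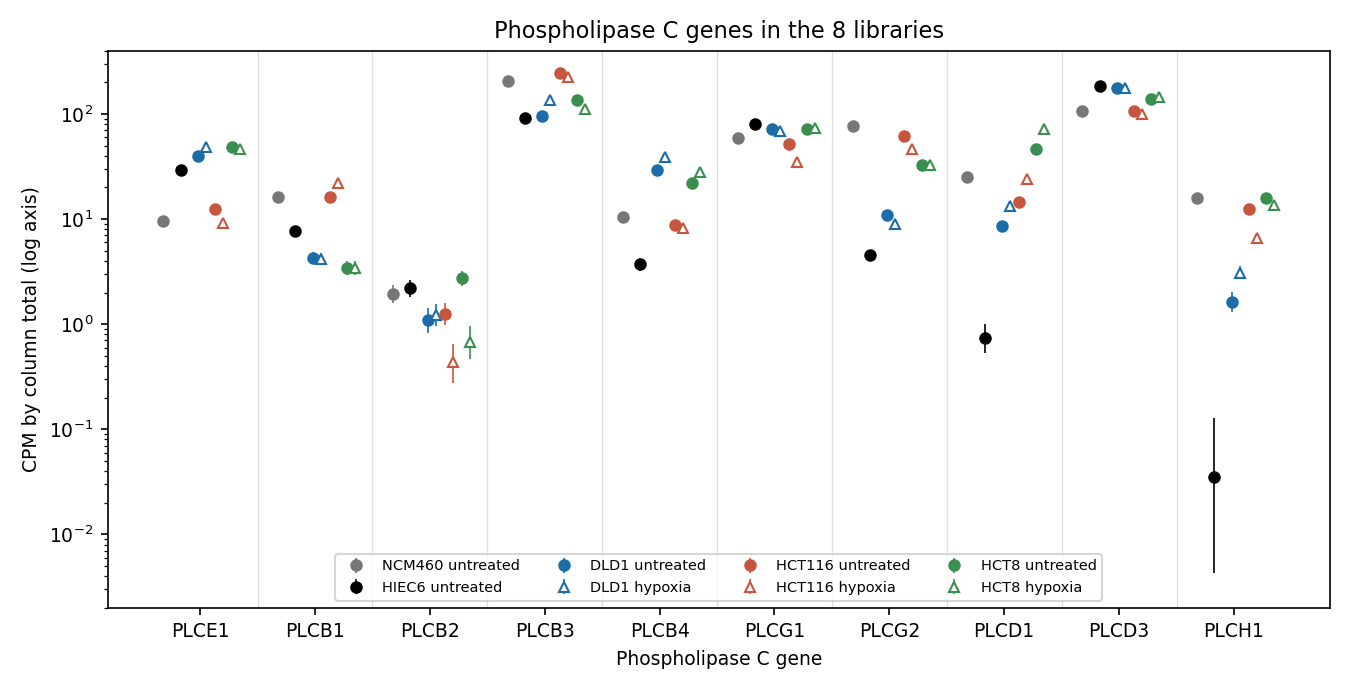
Points show the CPM of each phospholipase C gene (log axis) in the 8 libraries, with filled circles for untreated and open triangles for hypoxia libraries, and bars give exact 95% intervals of the counts. PLCD3 spans 1.85-fold from lowest to highest library, and the points of HIEC6 (black) for PLCD1 and PLCH1 lie far below the others, at 0.741 and 0.0353 CPM.

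PLCE1 (ENSG00000138193, GRCh37 chromosome 10, 95753688 to 96092580, plus strand) encodes the epsilon enzyme. It was at 39.8 CPM in DLD1, 12.4 in HCT116 and 49.0 in HCT8 without treatment, and at 9.51 CPM in NCM460 and 29.02 in HIEC6. NCM460 and HCT116 were the low libraries and HCT8 and DLD1 the high ones, with HIEC6 between them. From these libraries the exact intervals of the counts were 8.67 to 10.4 CPM in NCM460 and 11.5 to 13.4 CPM in HCT116, and they did not overlap. In the CRC lines PLCE1 was lower in HCT116 than in DLD1 by 1.83 ± 0.24 (SE) on the log2 scale (fold change 0.281, adjusted p = 0.000896) and also lower than in HCT8 (log2 fold change -1.78 ± 0.24, adjusted p = 0.00122). HCT8 and DLD1 differed by a log2 fold change of -0.05, with a 95% interval of -0.59 to 0.49 (adjusted p = 0.92). The antisense genes PLCE1-AS1 and PLCE1-AS2, which overlap PLCE1, had 0 counts in all libraries, and the pseudogene HDAC1P1 inside it had 14 counts at most.

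The 4 beta genes did not share a pattern. PLCB3 (ENSG00000149782, chromosome 11) encodes a widely expressed beta enzyme. It was at 95.9 CPM in DLD1, 244 in HCT116 and 137 in HCT8, and at 204 CPM in NCM460 and 90.9 in HIEC6. PLCB3 was 2.37-fold higher in HCT116 than in DLD1 (log2 fold change 1.25 ± 0.25, adjusted p = 0.00715) and 2.43-fold higher than in HCT8 (adjusted p = 0.00741), whereas the interval of HCT8 against DLD1 ran from -0.61 to 0.54 on the log2 scale. Without the untreated DLD1 library the first contrast no longer passed the test (adjusted p = 0.0806), and the second did not pass without the hypoxia library of HCT8 (adjusted p = 0.168).

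PLCB1 (ENSG00000182621, chromosome 20) encodes a beta enzyme with a known nuclear pool. It was at 4.26 CPM in DLD1, 16.2 in HCT116 and 3.44 in HCT8, and at 16.1 CPM in NCM460 and 7.71 in HIEC6. Among the untreated CRC lines HCT116 was the high one, whereas it was the low one for PLCE1. PLCB1 was 5.31-fold higher in HCT116 than in DLD1 (log2 fold change 2.41 ± 0.35, adjusted p = 0.00142) and 7.23-fold higher than in HCT8 (adjusted p = 0.000785). HCT8 against DLD1 gave -0.45, with an interval of -1.22 to 0.33. PLCB1-IT1, an RNA on the same strand within PLCB1, had 39 counts at most.

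PLCB4 (ENSG00000101333, chromosome 20), best known from neurons and the retina, was lowest in HCT116 among the CRC lines, as PLCE1 was. It was at 29.6 CPM in DLD1, 8.84 in HCT116 and 21.9 in HCT8, and at 10.4 CPM in NCM460 and 3.70 in HIEC6. PLCB4 was lower in HCT116 than in DLD1 by 1.77 ± 0.25 on the log2 scale (adjusted p = 0.00108) and lower than in HCT8 (log2 fold change -1.16 ± 0.24, adjusted p = 0.00937). HCT8 against DLD1 was -0.61, with an interval of -1.16 to -0.06. Its adjusted p was 0.124 with edgeR, 0.0495 with DESeq2, and 0.0315 and 0.0404 with edgeR when the hypoxia or the untreated library of HCT116 was left out. Without one or the other HCT8 library, HCT116 against HCT8 did not pass the test for PLCB4 (adjusted p = 0.121 without the hypoxia and 0.0946 without the untreated library).

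PLCB2 (ENSG00000137841, chromosome 15), known mainly from blood cells, was the lowest member in CPM in 7 of the 8 libraries, all but HIEC6. It was at 1.09 CPM in DLD1, 1.26 in HCT116 and 2.75 in HCT8, and at 1.95 CPM in NCM460 and 2.20 in HIEC6, from 56 to 145 counts. Counts on this gene are uncertain, since the gene span of ANKRD63 overlaps it on the same strand over 4693 bases, introns included. ANKRD63 had 0 to 175 counts. The 10 blood cell markers summed to 3.12 to 22.7 CPM per library, with CD68 at 1.14 to 20.6 CPM, CD14 at 0.0353 to 2.91 CPM and PTPRC at 0.106 CPM or below, and their part in the level of PLCB2 was not tested.

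PLCG1 (ENSG00000124181, chromosome 20), the enzyme downstream of most receptor tyrosine kinases, varied little. It was at 71.9 CPM in DLD1, 51.6 in HCT116 and 72.1 in HCT8, and at 59.3 CPM in NCM460 and 80.7 in HIEC6, a span of 2.31-fold with the hypoxia libraries included (2.11-fold without HIEC6). The gene spans of PLCG1 and ZHX3, introns included, share 18354 bases on opposite strands. ZHX3 had 1266 to 2815 counts, and the sources used here do not state whether strand was used in counting.

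PLCG2 (ENSG00000197943, chromosome 16), the gamma enzyme of B cells and myeloid cells, varied strongly. It was at 11.0 CPM in DLD1, 61.6 in HCT116 and 32.6 in HCT8, and at 77.1 CPM in NCM460 and 4.51 in HIEC6. All 3 CRC lines differed from each other in PLCG2. HCT116 was 6.27-fold above DLD1 (log2 fold change 2.65 ± 0.24, adjusted p = 0.000119) and 2.11-fold above HCT8 (adjusted p = 0.0103), and HCT8 was 2.97-fold above DLD1 (adjusted p = 0.00333). HCT116 against HCT8 did not pass without either HCT8 library (adjusted p = 0.121 and 0.149), and HCT8 against DLD1 no longer passed without the hypoxia library of HCT8 (adjusted p = 0.0739) or of DLD1 (0.0504).

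PLCD3 (ENSG00000161714, chromosome 17) had the narrowest range. It was at 177 CPM in DLD1, 107 in HCT116 and 140.0 in HCT8, and at 106 CPM in NCM460 and 187 in HIEC6, and the highest library was 1.85-fold above the lowest (1.75-fold without HIEC6). The gene span of PLCD3 shares 755 bases with ACBD4 and 58 with NMT1 on the other strand. ACBD4 had 192 to 1699 counts and NMT1 had 4901 to 16782. The contrasts of PLCD3 between CRC lines had log2 fold changes of -0.54, -0.08 and -0.47, and none passed the test with all 6 libraries. Without the hypoxia library of HCT116 the first gave -0.64 (adjusted p = 0.0488). PLCD1 (ENSG00000187091, chromosome 3), the delta enzyme in which the calcium-dependent mode of control is best described, was at 8.57 CPM in DLD1, 14.6 in HCT116 and 46.4 in HCT8, and at 25.4 CPM in NCM460 and 0.741 in HIEC6. HCT8 was the high line and HIEC6, with 42 counts, the low one. PLCD1 was 4.84-fold higher in HCT8 than in DLD1 (log2 fold change 2.28 ± 0.25, adjusted p = 0.000761), 2.03-fold higher in HCT116 than in DLD1 (adjusted p = 0.0147), and lower in HCT116 than in HCT8 by 1.25 ± 0.24 on the log2 scale (adjusted p = 0.00698). Only the contrast of HCT8 with DLD1 passed without every one of the 6 libraries. HCT116 against DLD1 did not pass without either DLD1 library (adjusted p = 0.151 and 0.0661), and HCT116 against HCT8 did not pass without either HCT8 library (adjusted p = 0.0755 and 0.0956).

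PLCH1 (ENSG00000114805, chromosome 3), an eta enzyme described mainly in neurons, was at 15.9 CPM in NCM460, 12.4 in HCT116, 15.8 in HCT8 and 1.64 in DLD1. In HIEC6 it had 2 counts (0.0353 CPM, exact interval 0.00427 to 0.127), which lies under the floor. PLCH1 was 4.51-fold higher in HCT116 than in DLD1 (log2 fold change 2.17 ± 0.43, adjusted p = 0.00658) and 5.60-fold higher in HCT8 than in DLD1 (2.48 ± 0.43, adjusted p = 0.00708). HCT116 against HCT8 gave -0.31 with an interval of -1.24 to 0.61. The first contrast did not pass without the untreated DLD1 library (adjusted p = 0.0612), and the second did not pass without that library (0.0600) or without either HCT8 library (0.0561 and 0.0594).

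Counted by contrast, 5 members passed the test as higher and 2 as lower in HCT116 than in DLD1. In that contrast 32.0% of all genes tested passed, 16.9% higher and 15.1% lower. Against HCT8, 3 members passed as higher and 3 as lower in HCT116 (27.0% of all genes, 13.9% and 13.1%). In HCT8 against DLD1, 3 members passed as higher and 0 as lower (15.7% of all genes, 8.80% and 6.86%). The median size of the log2 fold change was 1.51, 1.12 and 0.46 for the members and 0.84, 0.76 and 0.61 for all genes tested, in the same order. PLCE1 and PLCB4 were the members that passed the test as lower in HCT116 than in both other CRC lines. PLCB1, PLCB3 and PLCG2 were those that passed as higher than in both.

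**Figure D3:**
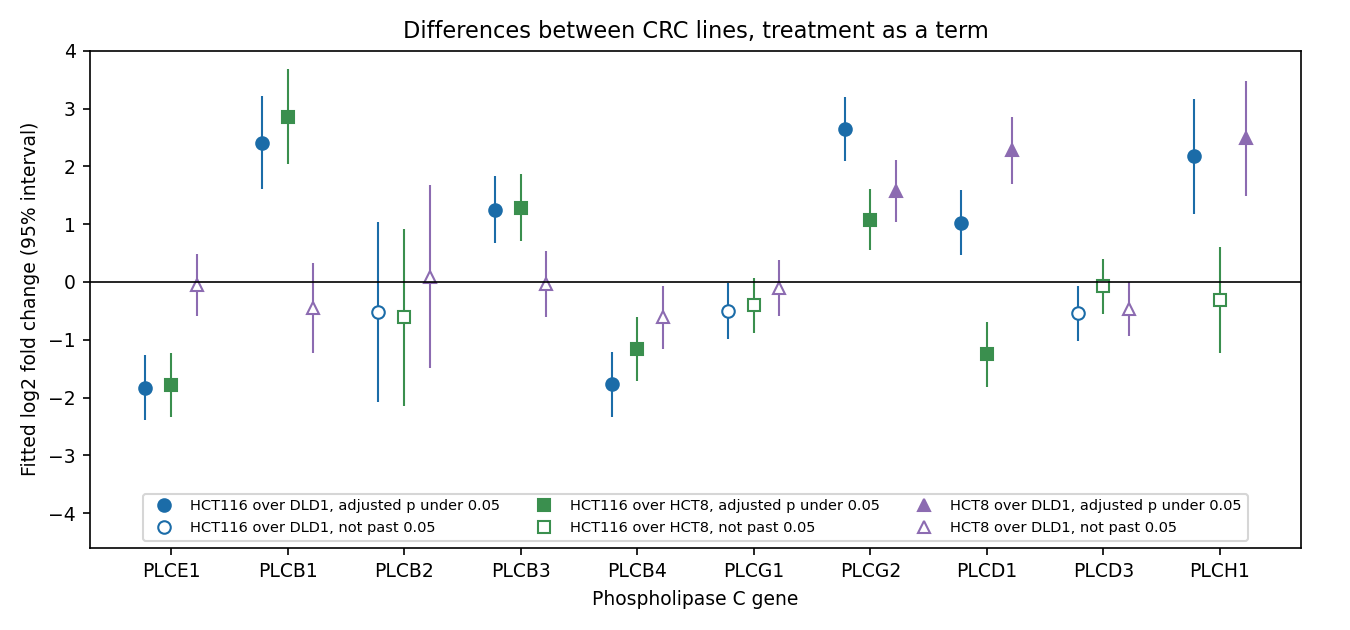
Fitted log2 fold changes between pairs of CRC lines are shown for each phospholipase C gene, with 95% intervals and filled symbols for an adjusted p under 0.05 (edgeR, 6 libraries, treatment as a term). PLCE1 and PLCB4 lie below 0 in both contrasts with HCT116, PLCB1, PLCB3 and PLCG2 lie above 0, and PLCD1 and PLCH1 are highest in the contrast of HCT8 with DLD1, at 2.28 and 2.48.

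The 2 lines labelled normal differed from each other in these genes. By column totals, NCM460 was more than 2-fold above HIEC6 in 6 members and more than 2-fold below it in 1 member, PLCE1. Of all genes with at least 10 counts in either library, 54.8% differed more than 2-fold, 32.9% above and 21.9% below. These are single libraries and no test was run. PLCE1 was at 0.328 times its HIEC6 level in NCM460, PLCG2 at 17.1 times and PLCD1 at 34.3 times. PLCH1 gave a ratio of 451, from 783 and 2 counts, with a counting interval of 6.96 to 11.87 on the log2 scale. With TMM normalization in place of column totals, PLCB1 (1.82-fold) and PLCB3 (1.97-fold) were no longer past 2-fold. PLCD3 (0.499-fold) then also lay more than 2-fold below its HIEC6 level. Between NCM460 and HCT116, in contrast, 0 members differed more than 2-fold, and 18.6% of all genes did. PLCD1 differed most, at 25.4 CPM in NCM460 and 14.6 in HCT116 (1.74-fold). Over the 10 members the root mean square difference of log2 CPM was 0.37 between NCM460 and HCT116, 0.54 between HCT116 and its own hypoxia library, and 2.58 between NCM460 and HIEC6.

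The comparison of CRC with normal lines used the 5 untreated libraries. No member passed the test (0 of 10), and no gene did (0 of 19964; 542 had an unadjusted p under 0.05, and DESeq2 called 143, with no member among them). PLCE1 averaged 19.3 ± 13.8 CPM (SD, n = 2 lines) in the normal and 33.7 ± 19.0 CPM (SD, n = 3 lines) in the CRC lines. The fitted log2 fold change of PLCE1 was 0.55 ± 0.79 (SE), with an interval of -1.45 to 2.55 (adjusted p = 0.999). The largest fold change was that of PLCB4, which averaged 7.08 ± 4.77 CPM in the normal and 20.1 ± 10.5 CPM in the CRC lines (log2 fold change 1.35 ± 0.75, interval -0.55 to 3.24, adjusted p = 0.999). The groups overlapped in all 10 members, whereas they did not overlap in 18.2% of all genes tested. The other 8 members had log2 fold changes of -0.70 (PLCB1) to 0.67 (PLCD1).

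Several of these values turned on which normal line was used. Without NCM460, the log2 fold change of PLCE1 was -0.08, and without HIEC6 it was 1.69. PLCB3 went from 0.56 to -0.45, PLCG1 from -0.58 to 0.03, PLCG2 from 2.71 to -1.22, PLCD1 from 4.65 to -0.28 and PLCD3 from -0.67 to 0.30 in the same order. PLCH1 went from 7.78 to -0.80, and its first value depends on the prior count of the fit, since HIEC6 held 2 counts. PLCB4 stayed above 0 (2.16 and 0.83), and PLCB1 and PLCB2 stayed below 0. None of these values passed the test.

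Hypoxia was compared with no treatment in the 3 CRC lines, and the treatment was first checked on 18 genes known to respond to hypoxia. All 18 had a higher CPM under hypoxia in each of the 3 lines, but BNIP3 had 0 counts in untreated DLD1 and HCT8 and 5 and 1 in their hypoxia libraries, the last of which lies under the floor. With the line as a block, 14 of them passed the test, among them NDRG1 (20.6-fold, adjusted p = 0.00462) and CA9, a carbonic anhydrase (adjusted p = 0.00447). CA9 went from 0.0195 to 4.22 CPM in DLD1, from 0.115 to 18.8 in HCT116 and from 0.0760 to 3.91 in HCT8, from 1 to 6 counts in the untreated libraries, of which that of DLD1 lies under the floor. No phospholipase C gene passed (0 of 10), and 0.950% of all genes did, 156 of them higher and 44 lower (200 of 21045). Without the block 0 genes passed, 607 had an unadjusted p under 0.05, and DESeq2 called 55. The groups overlapped in all 10 members and did not overlap in 9.50% of all genes. In the fit with the block the median size of the log2 fold change was 0.14 for the members and 0.40 for all genes. Neither here nor in the other comparisons with all genes were the genes matched to the members on count level. In bulk RNA, a change in the share of cells that express a gene and a change in RNA per cell cannot be told apart.

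PLCE1 went from 39.8 to 48.9 CPM in DLD1, from 12.4 to 9.17 in HCT116 and from 49.0 to 46.0 in HCT8. By column totals PLCE1 was higher under hypoxia in 1 line and lower in the other 2. On the TMM scale the log2 ratio was -0.08 in HCT116 and -0.08 in HCT8. Both counting intervals held 0 (-0.25 to 0.09 and -0.17 to 0.001). With the line as a block, the log2 fold change of PLCE1 was 0.06 ± 0.19 (SE, adjusted p = 0.905). Its interval was -0.39 to 0.50. Without the block, the log2 fold change was 0.10 ± 0.66. The block interval corresponds to folds of 0.765 to 1.42.

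PLCD1 was the member with the smallest p. It went from 8.57 to 13.5 CPM in DLD1, from 14.6 to 23.9 in HCT116 and from 46.4 to 71.9 in HCT8, which is 1.57-fold, 1.64-fold and 1.55-fold. PLCD1 was thus higher in all 3 lines, as were 16.2% of all genes tested, and a level over 1.5-fold higher in all 3 lines was found in 4.37% of all genes (5.44% on the TMM scale). The cut of 1.5-fold lies just under the lowest fold of PLCD1, and the planned cut was 2-fold. The share past 1.5-fold therefore does not show how unusual PLCD1 is. The hypoxia and untreated groups still overlapped, because the untreated HCT8 library lay above the hypoxia libraries of DLD1 and HCT116. With the line as a block the log2 fold change was 0.80 ± 0.20 (interval 0.35 to 1.25) and the adjusted p was 0.103. Without the block it was 0.76 ± 0.78 (adjusted p = 0.9999). DESeq2 with the block gave an adjusted p of 0.00604 and called PLCD1 among the 7.92% of genes that it called (1666 of 21045), whereas limma-trend with the block gave 0.108. With 1 line left out in turn, the adjusted p of the block lay between 0.0750 and 0.523.

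PLCB2 moved most but rested on few counts. It went from 56 to 70 counts in DLD1, from 66 to 24 in HCT116 and from 145 to 31 in HCT8, or from 1.09 to 1.22, 1.26 to 0.433 and 2.75 to 0.681 CPM. It was lower in 2 lines, and by column totals these were the members' only changes of over 2-fold in a line, whereas on the TMM scale PLCD1 was also 2.10-fold higher in HCT116. In DLD1 no member changed by over 2-fold by column totals (0 of 10), and 17.1% of all genes did. A fall of over 2-fold was seen in 25.7% of all genes in HCT116 and 9.81% in HCT8. The log2 fold change with the block was -0.995 ± 0.564 (adjusted p = 0.392). ANKRD63, which overlaps PLCB2, went from 29 to 50, 122 to 19 and 8 to 0 counts in the same lines, and its part in the fall was not tested.

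PLCB4 went from 29.6 to 38.9 CPM in DLD1, from 8.84 to 8.23 in HCT116 and from 21.9 to 27.9 in HCT8 (block log2 fold change 0.35 ± 0.19, adjusted p = 0.387). PLCB1 went from 4.26 to 4.17, from 16.2 to 22.3 and from 3.44 to 3.43 CPM, so that HCT116 was the line that differed beyond counting error. PLCB3 went from 95.9 to 136 CPM in DLD1, from 244 to 225 in HCT116 and from 137 to 111 in HCT8. PLCH1 went from 1.64 to 3.10 CPM in DLD1, from 12.4 to 6.55 in HCT116 and from 15.8 to 13.7 in HCT8. By column totals PLCB3 and PLCH1 were thus higher in DLD1 and lower in the other 2 lines, but on the TMM scale PLCB3 in HCT116 was on the higher side (log2 ratio 0.24). Their block log2 fold changes were 0.16 ± 0.20 and 0.04 ± 0.34.

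The remaining members changed little in most lines. PLCG1 went from 71.9 to 69.0 CPM in DLD1, from 51.6 to 34.9 in HCT116 and from 72.1 to 73.6 in HCT8. PLCG2 went from 11.0 to 8.89, from 61.6 to 46.1 and from 32.6 to 32.7 CPM. PLCD3 was at 177 CPM in both DLD1 libraries, went from 107 to 101 in HCT116 and from 140.0 to 144 in HCT8. Their block log2 fold changes were -0.06 ± 0.17, -0.10 ± 0.19 and 0.12 ± 0.17, and the largest distance of their intervals from 0 was 0.53.

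The scale matters in HCT116. By column totals 8 of the 10 members were lower in the hypoxia library of this line, and the median of all genes there was a log2 ratio of -0.35. TMM normalization shifted the ratios of this pair by 0.36, against 0.03 in DLD1 and 0.01 in HCT8. On the TMM scale 5 members were higher and 5 lower in HCT116. PLCB3 moved from -0.12 to 0.24 and PLCD3 from -0.09 to 0.27, PLCB4 from -0.10 to 0.25, PLCE1 from -0.44 to -0.08, and PLCD1 from 0.71 to 1.07. PLCB1, PLCB4, PLCD1 and PLCD3 were then higher in all 3 lines, as were 22.3% of all genes, although the counting intervals of PLCB1 in DLD1 and HCT8 and of PLCD3 in DLD1 held 0.

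**Figure D4:**
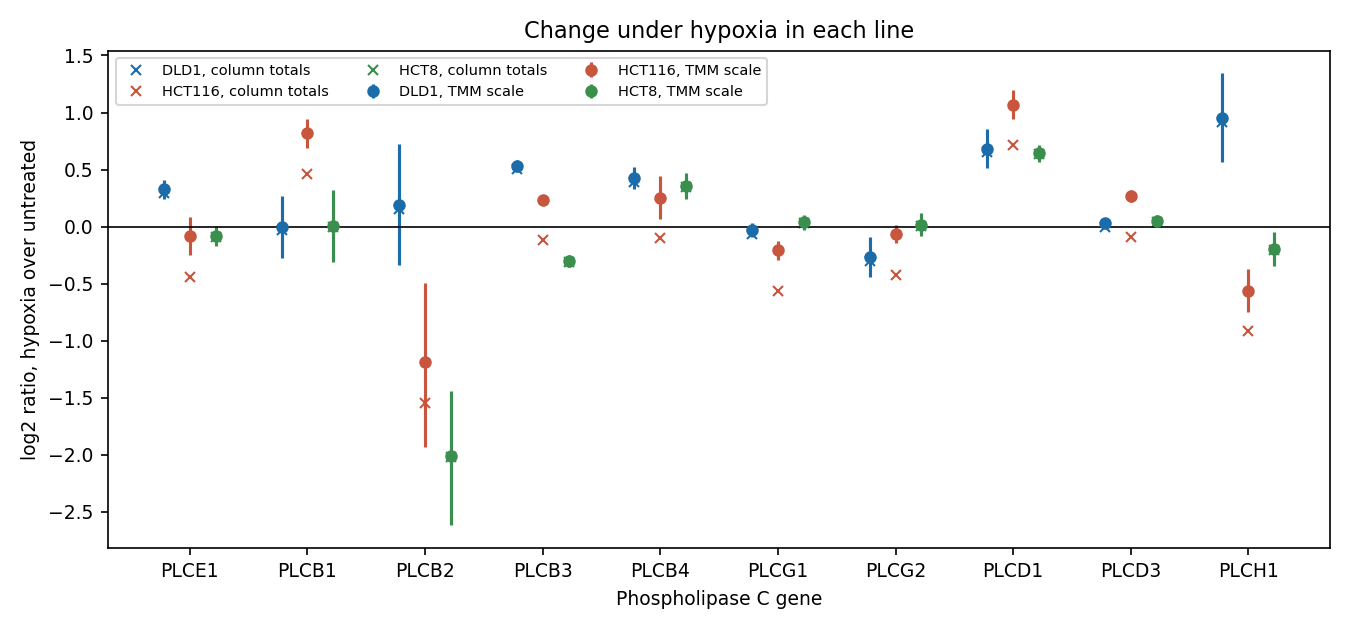
The log2 ratio of hypoxia over untreated is shown for each phospholipase C gene and CRC line, with crosses by column totals and points on the TMM scale with exact 95% counting intervals. PLCD1 lies above 0 in all 3 lines, PLCB2 falls to -1.19 in HCT116 and -2.01 in HCT8 on the TMM scale, and crosses and points part in HCT116 by the shift of 0.36.

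The rest of the pathway was read from 8 lists with 111 genes, of which 106 were tested. With the line as a block, 0 of these genes passed the test of hypoxia, 67 were on the higher and 39 on the lower side, and the median log2 fold change was 0.13, beside 0.03 for all genes. The line test called 64 of them (60.4%), beside 39.0% of all genes tested. In the 8 lists together, the lines differed in 2 of 6 tested genes of other phospholipase C and related proteins, 9 of 21 G protein and RAS-family activators, 11 of 13 receptor tyrosine kinases, 6 of 16 genes that supply PIP2, 9 of 14 IP3 receptors and calcium genes, 10 of 13 genes of IP3 turnover, 5 of 8 DAG kinases and 12 of 15 DAG effectors.

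By level, the activators were led by the GTPases RHOA (854 to 1322 CPM) and RAC1 (246 to 359 CPM), and the receptors by MET, the receptor of hepatocyte growth factor (165 to 745 CPM), and ERBB2 (84.7 to 298 CPM). PIP5K1A, which makes PIP2, lay between 139 and 230 CPM, and PI4KA, which makes its precursor, between 82.7 and 238 CPM. Downstream, the calcium pump ATP2A2 lay between 362 and 834 CPM and the calmodulin gene CALM2 between 200 and 787 CPM. ISYNA1, which makes inositol phosphate from glucose phosphate, ranged from 0.781 to 245 CPM, and INPP4A, a lipid phosphatase, from 29.2 to 79.3 CPM. The DAG kinases DGKD and DGKZ averaged 101 and 65.3 CPM over the 8 libraries, and the vesicle priming proteins UNC13D and UNC13B lay at 10.3 to 228 CPM and 36.2 to 186 CPM. Their block log2 fold changes under hypoxia ran from -0.42 (UNC13B) to 0.80 (ISYNA1), with adjusted p of 0.134 or above. PLCL2, an inactive relative of the family, was at 1.39 to 16.3 CPM and PLCXD2 at 0.957 to 17.3 CPM, and neither passed the test of hypoxia (adjusted p = 0.704 and 0.189).

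The genes nearest to PLCE1 in pattern were sought by the root mean square difference of log2(CPM + 0.5) after each gene was centred on its mean over the 8 libraries. Among 21646 genes, GSTM4, a glutathione transferase of a multigene family, was nearest, with a difference of 0.11. It was at 52.5 CPM in DLD1, 15.5 in HCT116 and 64.1 in HCT8, and at 13.2 CPM in NCM460 and 38.7 in HIEC6, and at 59.9, 9.75 and 57.2 CPM in the hypoxia libraries of DLD1, HCT116 and HCT8. LOC339988 (0.12) and ZNF433 (0.16), a zinc finger gene, came next, and both lay at or below 0.153 CPM in NCM460 and the HCT116 libraries and at or below 2.31 CPM elsewhere. With 0.05 in place of 0.5 CPM added, GSTM4 was again nearest and the next genes were ZNF136 and PPT1. No paralog was near PLCE1 by this measure. The nearest were PLCD3 (0.73) and PLCG1 (0.73), at ranks 2562 and 2638 among the genes, and PLCH1 (2.13) was farthest.

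The promoters of 6 of the 10 members were searched for ACGTG on both strands (RefSeq, GRCh38.p14). They ran from 250 bases before to 50 after the start. ACGTG is a form of the core of the hypoxia response element, and the other form, GCGTG, was not searched. PLCE1 and PLCH1 held ACGTG (2 of 6), beside 21.4% of 35116 promoters of the same length. Both are shown because these are the members whose promoter holds the letters, which are in capitals as they stand on the gene's strand.
PLCE1: ctcatcaccctgCACGTtgcaggattttt
PLCH1: gccttggggttcCACGTgcagccctaggg
The PLCE1 stretch is at chr10:94089020-94089048 on the plus strand, with the match 7 bases into the transcript. The PLCH1 stretch is at chr3:155745207-155745235 on the minus strand, 152 bases before the start, and the letters also match on the other strand there, overlapping by 4 bases. Neither gene passed the test of hypoxia, and the promoters of PLCB1, PLCB2, PLCB4 and PLCD1 were not analysed here.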

How the data were processed

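Total RNA of 8 libraries from 5 cell lines was measured. The authors aligned clean reads and deposited the raw counts per gene as 1 table, without normalization. The study's methods name GRCh37.p13, while the submitters' processing notes name GRCh38 and HISAT2 2.0.4. The counter, the use of strand and the treatment of reads with several matches are not given in the sources used here. The table holds no coordinates, and positions were taken from GENCODE release 44 lifted to GRCh37. No column was left unmapped (0).

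CPM was computed from column totals (45519306 to 57374239 counts). Differences were tested with the quasi-likelihood F test of edgeR 4.0.16 under R 4.3.3, with TMM factors and Benjamini-Hochberg adjusted p-values (threshold 0.05). A gene entered a fit when 2 or more of its libraries held 10 or more counts. The SE is the log2 fold change over the root of F. Each contrast of CRC lines was adjusted on its own. Ratios of single libraries have exact binomial intervals (95%). The alternatives were DESeq2 1.42.0, limma-trend (limma 3.58.1), upper-quartile normalization, other filters, 1 fit of all 8 libraries, a fit of the lines without treatment, and leaving out each library. Fits that join the line as a block with another tool, with upper-quartile scaling or with a line left out, and leaving out libraries in the test of lines, were added after seeing the data. The fits were tested on simulated hypoxia counts, in which 200 genes were changed by 1 or 2 on the log2 scale. With the line as a block and a coefficient of variation (CV) of 0.3, 4.5% of changes of 1 and 94% of changes of 2 were recovered. At a CV of 0.2 these were 58% and 100%. Without the block 0% were recovered. The block fit of the real data had a CV of 0.295, so a member's change of 1 could be missed.

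Same-numbered libraries of the hypoxia comparison come from 1 cell line, which pairs them. Their deviations from the group means had correlations of 0.836 in DLD1, 0.857 in HCT116 and 0.820 in HCT8, and those of different lines had -0.611 to -0.0599. Deviations from a group mean cancel out over the lines, so positive values within lines force negative ones between lines. The numbers of the normal lines pair nothing. The members and gene lists were chosen with earlier results of these data known. All members are reported. Of the other lists, the genes past the threshold in the fit with the block (at most 4 per list) or, with none, the 2 of highest mean CPM are named, and so are the 3 genes nearest to PLCE1 in pattern. The markers EPCAM, KRT8, SNAP25, GFAP, GAD1 and PTPRC, the mesenchymal markers in HIEC6 and the genes that overlap members are named beyond this rule, after their values were seen.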

Additional observations from a re-analysis of the deposited data

Results flagged for a closer look

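PLCB3 and PLCH1 moved in opposite directions under hypoxia in different lines. The log2 ratio of CPM of PLCB3 by column totals was 0.50 in DLD1 and -0.31 in HCT8, a difference of 0.811, and the counting intervals (0.45 to 0.55 and -0.36 to -0.26) lay on opposite sides of 0. The log2 ratio of PLCH1 was 0.92 in DLD1 and -0.92 in HCT116, a difference of 1.84, with counting intervals of 0.54 to 1.31 and -1.11 to -0.73. On the TMM scale the ratios were 0.53 and -0.30 for PLCB3 and 0.95 and -0.56 for PLCH1. Each line has 1 library per condition, so the difference between lines was not tested for either gene.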

How the results depend on the processing

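Without the block, 0 genes passed the test of hypoxia in any of the edgeR and limma fits, and DESeq2 called 55. With the line as a replicate block, edgeR called 200 genes, with upper-quartile scaling 215, limma-trend 113 and DESeq2 1666. Leaving out DLD1, HCT116 or HCT8 from the block fit gave 292, 738 and 6 genes. For CRC against normal lines 0 genes passed, except with DESeq2 (143), and the numbers there pair nothing, so the block fit (0 genes) is given for completeness. The test of lines called 8208 genes, 5149 without the treatment as a term and between 4547 and 10147 with a library left out. For HCT116 over DLD1, 6741 genes became 4483 with at least 10 counts in every library, where fewer genes are tested, 4392 without the treatment term and 2978 to 7697 with a library left out. For HCT116 over HCT8, 5677 became 3584, 3736 and 2184 to 6999 under the same choices. For HCT8 over DLD1, 3295 became 1480 without the treatment term and 937 to 6782 with a library left out. The lowest counts came without a hypoxia library, of DLD1 for HCT116 over DLD1 and of HCT8 for the others, and the cause was not tested.

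Values that passed no test changed sign most. With a library left out and no block, the log2 fold change under hypoxia ran from -0.28 to 0.49 for PLCE1, -1.15 to 1.76 for PLCB1, -0.42 to 0.72 for PLCB3, -0.11 to 0.81 for PLCB4, -0.16 to 0.092 for PLCG1, -0.86 to 0.74 for PLCG2, -0.058 to 0.32 for PLCD3 and -0.74 to 0.17 for PLCH1. With the block and a line left out it reached -0.078 for PLCE1 and -0.027 for PLCB3 (without DLD1), -0.013 for PLCB1 (without HCT116), and 0.32 and 0.18 for PLCH1 (without HCT116 and HCT8; range from -0.37). PLCH1 was at -0.24 without the block, and at 0.039 with the block, 0.071 with the block and DESeq2, 0.062 with limma-trend with and without the block, and 0.085 with the block and upper-quartile scaling. The block took no member past the threshold except PLCD1 with DESeq2. For CRC against normal lines, leaving out a library gave -0.078 to 1.69 for PLCE1, -0.56 to 0.56 for PLCB3, -0.58 to 0.027 for PLCG1, -1.22 to 2.71 for PLCG2, -0.28 to 4.65 for PLCD1, -0.67 to 0.30 for PLCD3 and -0.80 to 7.78 for PLCH1. PLCB3 was also at 0.033 with the replicate block and 0.042 with upper-quartile scaling, and PLCG2 at 0.34 with the replicate block and 0.40 with limma-trend. Between lines, the signs that changed with a library left out were those of PLCB2 (-1.33 to 0.46 for HCT116 over DLD1, -1.23 to 0.29 for HCT116 over HCT8 and -0.79 to 1.001 for HCT8 over DLD1), of PLCD3 (-0.19 to 0.070) and PLCH1 (-0.77 to 0.091) for HCT116 over HCT8, and of PLCE1 (-0.26 to 0.15) and PLCB3 (-0.38 to 0.31) for HCT8 over DLD1, the last pair also with upper-quartile scaling (0.016 and 0.029). By TMM factors PLCB3 and PLCD3 were at 0.24 and 0.27 in the HCT116 pair. PLCE1 kept its direction and its call in HCT116 against both other lines under every alternative run.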

Other observations

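Among the list genes that passed the test of hypoxia with the line as a block, ANGPTL4, a secreted lipase inhibitor, rose 41.6-fold (adjusted p = 0.0113). BNIP3, a mitochondrial protein of hypoxic cells, also passed (adjusted p = 0.00564), but it had 0 counts in untreated DLD1 and HCT8 and 5 and 1 in their hypoxia libraries, and HCT116, where it went from 18.5 to 192 CPM, was the line with a measurable untreated level. Of the epithelial markers KRT19 rose 2.94-fold (adjusted p = 0.0115), at 738, 855 and 781 CPM in untreated and 1907, 2075 and 2392 CPM in hypoxic DLD1, HCT116 and HCT8. It was the marker of 11 tested that passed. Of the mesenchymal markers FN1 passed (6.97-fold, adjusted p = 0.0295; 1 of 9 tested). FN1 went from 5.47 to 55.8 CPM in DLD1 and from 14.2 to 92.6 in HCT116, but from 0.266 to 0.461 CPM in HCT8, from 14 and 21 counts. Of 5 blood cell and 5 brain markers tested, 0 passed, and their highest members were CD68 (1.14 to 20.6 CPM), CD14 (0.0353 to 2.91 CPM), MBP (10.8 to 118 CPM) and SYT1 (0 to 159 CPM, 128 and 159 CPM in the HCT116 libraries and 68.8 CPM in NCM460).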
